A study of Mus musculus with 8 samples.

Results

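Tail-anchored proteins hold a single membrane segment at their C-terminal end and can be inserted into a membrane only after the ribosome has released them. Transcripts of this class were selected by gene symbol: the syntaxins, the VAMPs and the Bet1, Gosr, Sec22, Vti1, Ykt6, Use1 and Bnip1 SNAREs, 5 other tail-anchored proteins (Cyb5b, Vapa, Vapb, Bcl2l1, Mcl1) and factors of their insertion pathway (Asna1, Get4, Wrb). Of the 9 genes named outright, 8 were found; Camlg was listed under the symbol Caml (NM_007596), which RefSeq gives as the same gene, and is described on its own and left out of every count. The 42 transcripts selected, of 16458 in the 3 deposited tables, were all in the poly(A) table; 28 were in the CLIP table, 26 in the footprint table and 23 in all 3.

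The cells of all 8 libraries were A3-1, a line of mouse embryonic stem cells kept in medium with serum and LIF. LIN28A-bound RNA was measured by CLIP-seq, which uses UV light to fix RNA to the bound protein before immunoprecipitation and sequencing, in cells that received no siRNA, with 3 anti-LIN28A antibodies: the monoclonal antibodies 35L33G and 2J3 and a polyclonal antibody. Poly(A) RNA was sequenced from untreated cells and, 48 h after transfection, from cells given siRNA against luciferase (siLuc) or against Lin28a (siLin28a). Ribosome-protected fragments, called footprints below, were sequenced from siLuc and siLin28a cells. Each antibody and each condition had 1 library, 1 cell line was used, and no CLIP library without LIN28A or with a control antibody was analysed here. The comparisons address which of these mRNAs LIN28A bound and how their levels and ribosome occupancy differed when Lin28a was reduced.

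SNAREs are helical membrane proteins of vesicles and target membranes that pair to drive membrane fusion along the secretory and endocytic routes; most are tail-anchored, while a few, such as Ykt6, are held by lipid. In the GET (TRC40) pathway, a new tail-anchored protein is passed from Sgta to the complex of Get4, Ubl4 and Bag6, then to the ATPase encoded by Asna1, and is inserted at the endoplasmic reticulum (ER) by the receptor formed by the products of Wrb and Camlg. LIN28A, an RNA-binding protein abundant in embryonic stem cells, is known for blocking maturation of the let-7 microRNAs and for binding many mRNAs.

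The siRNA against Lin28a is the reagent on which all changes below rest, so its strands are shown, 5′ to 3′, each of 19 bases with a dTdT overhang left out.
first strand: auguucuucccuuuuggcc
second strand: ggccaaaagggaagaacau

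The libraries held from 5980673 counts (footprints, siLin28a) to 9605641 counts (poly(A), siLin28a). Lin28a mRNA stood at 465 CPM (counts scaled to the library total) in untreated cells, 354 with siLuc and 118 with siLin28a, so that 33.4% of the siLuc level was left; 25.7% of its footprints were left. All 8 markers of embryonic stem cells were found, with a summed level of 2201 to 2651 RPKM (counts scaled to transcript length and library total) over the 3 poly(A) libraries. Of 9 fibroblast markers 5 were found, with a sum of 98.1 to 164 RPKM, of which Vim made up 83.5 in untreated cells; 3 of them lay under 1 RPKM in every library. The 8 markers of differentiated lineages summed to 2.79 to 6.15 RPKM, and Cdx2 was listed at 0 in untreated cells. All 3 sums were highest with siLin28a and lowest in untreated cells, and their part in the siRNA results was not tested. Within the fibroblast list this order was that of Vim (83.5, 143 and 158 RPKM in untreated, siLuc and siLin28a cells), while Thy1 stood at 13.9, 13.4 and 6.12 RPKM. Not every gene of the other lists followed its sum. In the same order, Pou5f1 stood at 874, 863 and 1055 RPKM but Dppa3 at 11.3, 11.3 and 4.20. Among the lineage markers, Nes stood at 1.43, 1.66 and 3.47 RPKM but Pax6 at 0.339, 0.577 and 0.245. The poly(A) samples are bulk RNA, in which fewer cells of a type and less RNA per cell cannot be told apart.

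Messenger RNA of nearly all members was present in untreated cells. The level was 10 RPKM or more for 24 of 42 members, from 1 to 10 RPKM for 14 and under 1 RPKM for 4, with a median of 15.8 RPKM against 5.70 RPKM over all transcripts of the table. In order of level in the untreated library, the most abundant were Asna1 at 202 RPKM, Mcl1 at 155, Vapa at 104 and Ykt6 at 64.4. Neighbours in this order rest on 1 library and were not tested against each other.

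The 3 insertion factors lay above the median transcript in untreated cells. Asna1 stood at 202, 194 and 248 RPKM in the untreated, siLuc and siLin28a libraries. Get4, which bridges Asna1 to the complex holding the client, stood at 41.0, 34.3 and 34.9 RPKM. Wrb, the insertase subunit at the ER, stood at 34.5, 32.5 and 26.8 RPKM. Asna1 was above both of its partners in each library, by the largest factor with siLin28a. The 12 ER-Golgi SNAREs ran from 4.16 RPKM (Sec22c) to 64.4 RPKM (Ykt6) in untreated cells, with Sec22c and Sec22a (5.38 RPKM) below the median transcript.

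Plasma membrane SNAREs included members of very low level. Stx11, a lipid-anchored syntaxin of immune cells, stood at 0.270, 0.447 and 0.434 RPKM in untreated, siLuc and siLin28a cells. Stx19 had 0 counts in untreated and siLuc cells and 7 with siLin28a, and Vamp5 had 0, 2 and 0 counts in the same order. A count of 0 in the untreated library allows up to 0.324 CPM (3 counts), so these transcripts were at or under the depth. The locus of Stx19 overlaps that of Arl13b, and the sources used here do not state whether strand was used in counting. Among the plasma membrane SNAREs, Vamp3 (31.5 RPKM), Stx3 (19.9 RPKM) and Stx4a (16.1 RPKM), which act in constitutive traffic in most cells, were the 3 highest of 11.

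**Figure D1:**
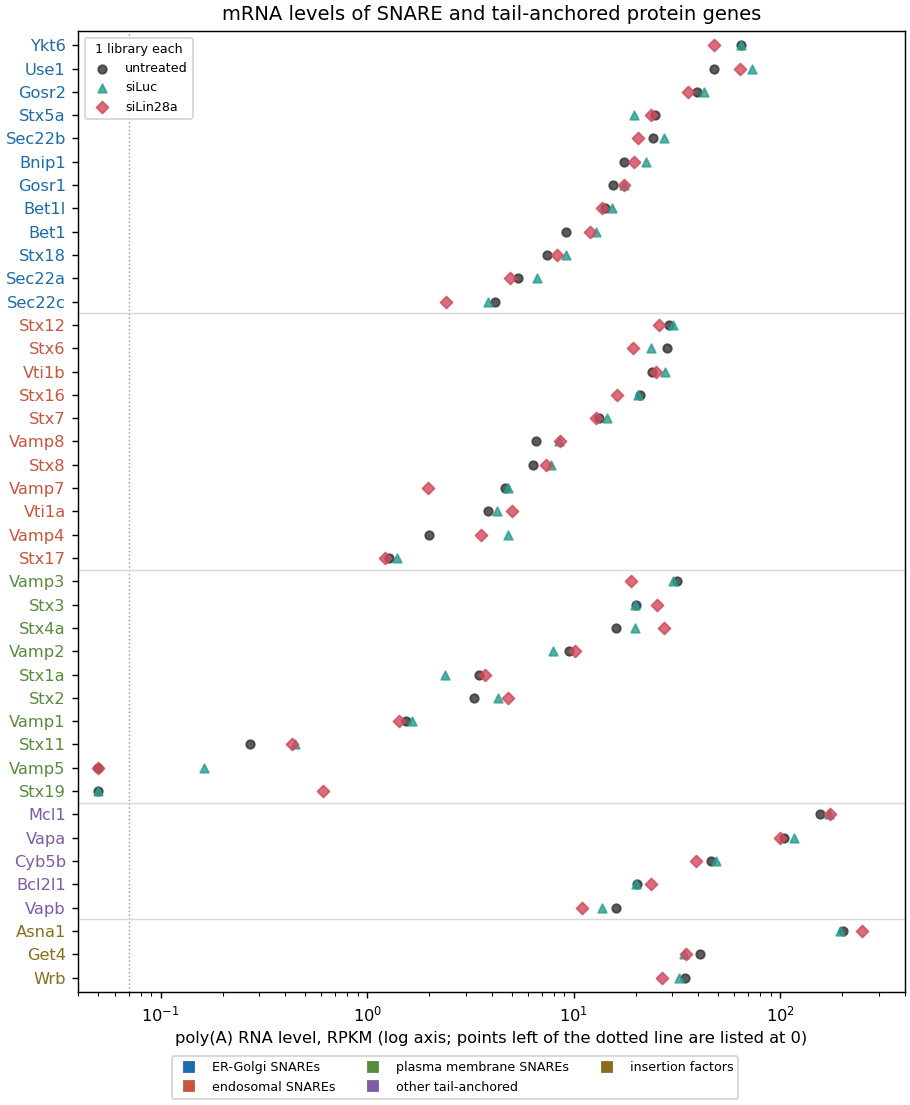
Poly(A) RNA level of 41 members in RPKM on a log axis, 1 point per library (untreated, siLuc, siLin28a), grouped by role through the colour of the gene name; points left of the dotted line are listed at 0. Asna1, Mcl1 and Vapa lie at the right, and the plasma membrane SNAREs Stx11, Stx19 and Vamp5 lie under 1 RPKM in every library.

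LIN28A CLIP over untreated poly(A) RNA divided the members in both directions. Of 28 measured members, 9 were enriched (32.1%) and 7 depleted (25%) at an edgeR adjusted p under 0.05, the p-values being adjusted over all 7820 transcripts, and 12 were not called. Over all transcripts 34.6% were enriched and 33.3% depleted, so the members' shares lay near or under the background. The median log2 enrichment was 0.08 for the members and −0.03 for all transcripts. In 25 of 28 members the 3 antibodies had the same sign, and the SD over antibodies ran from 0.01 to 1.11 with a median of 0.17 (0.15 for all transcripts). The single poly(A) input is assumed to vary like the CLIP libraries, and the antibodies are not stated to have been used on separate cultures, so p-values describe only how far these libraries spread, and that spread may be technical. TMM scaling was used; scaling to total counts moved the median transcript from −0.03 to −0.40, and the calls became 6 enriched and 12 depleted. Gosr2, Stx7 and Mcl1 were then no longer enriched, and Bcl2l1, Get4, Gosr1, Stx16 and Vamp2 were called depleted.

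Endosomal SNAREs included both of the highest values. Vti1b (NM_016800; mm9 chromosome 12, 80257004 to 80273445), a SNARE of late endosomes and the trans-Golgi network, had 767, 913 and 851 CLIP counts with 35L33G, 2J3 and the polyclonal antibody, the order used throughout, against 285 in untreated poly(A) RNA. Its log2 enrichments were 2.00, 2.23 and 2.10 (mean 2.11 ± 0.12, SD, n = 3; edgeR adjusted p = 8.2e-09), the highest mean of the 28. The Vti1b locus overlaps that of Arg2 by 285 bases, but Arg2 had 4, 0 and 3 counts in the untreated, siLuc and siLin28a poly(A) libraries. Vamp7 (NM_011515; mm9 chromosome X_random, 10738 to 39148), a SNARE of lysosome fusion, had 183, 226 and 267 CLIP counts against 109. Its log2 enrichments were 1.31, 1.60 and 1.82 (mean 1.58 ± 0.25, SD, n = 3; edgeR adjusted p = 0.00086). All 3 antibodies placed both transcripts far above the median transcript.

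The third enriched endosomal SNARE was Stx7, a late endosomal syntaxin and partner of Vti1b in one fusion complex. It had 339, 345 and 345 CLIP counts against 308, and the smallest spread of all members (0.70 ± 0.01, SD, n = 3; edgeR adjusted p = 0.016). The other SNAREs of that complex, Vamp8 and Stx8, were not in the CLIP table and not called, respectively: Stx8 stood at 0.29 ± 0.43, with 2J3 at 0.78 and the other antibodies at 0.09 and −0.01. Stx12, an early endosomal syntaxin, stood at 0.02 and Stx16, a syntaxin of the trans-Golgi network, at −0.54, neither called; without the polyclonal library Stx16 was called depleted. Stx12 stood at −0.35 by total counts, and Stx8 at −0.08.

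Stx6, which acts with Stx16 at the trans-Golgi network, was depleted. Stx6 (NM_021433; mm9 chromosome 1, 157005833 to 157050647) had 247, 167 and 140 CLIP counts against 642 in poly(A) RNA. Its log2 values were −0.81, −1.39 and −1.67 (mean −1.29 ± 0.44, SD, n = 3; edgeR adjusted p = 0.00075). All 3 antibodies lay under the input, with a wider spread than for Vti1b. In all, 3 of 7 endosomal SNAREs were enriched and 1 was depleted.

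ER-Golgi SNAREs gave 2 enriched and 3 depleted of 10. Sec22a, a multi-spanning homologue of the vesicle SNARE Sec22b, had 376, 307 and 279 CLIP counts against 199 (log2 1.22 ± 0.24, SD, n = 3; edgeR adjusted p = 0.00083). Gosr2, a Golgi SNARE, had 1047, 970 and 1107 counts against 1129 (0.43 ± 0.09; adjusted p = 0.012). Bet1, which pairs with Gosr2, Stx5a and Sec22b in ER-to-Golgi fusion, stood at 0.89 ± 0.34 and missed the threshold (adjusted p = 0.071); it was called without the polyclonal library.

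The depleted ER-Golgi members were Use1, Bet1l and Stx5a. Use1 (NM_001145780; mm9 chromosome 8, 73890747 to 73893631), a SNARE of retrograde traffic to the ER, had 119, 113 and 137 CLIP counts against 470. Its log2 values were −1.41, −1.50 and −1.25 (mean −1.39 ± 0.13, SD, n = 3; edgeR adjusted p = 0.00067). Bet1l (NM_018742; mm9 chromosome 7, 148039283 to 148042282), a SNARE within the Golgi, had 72, 47 and 66 counts against 203 (−1.18 ± 0.32; adjusted p = 0.049), and this call was lost under DESeq2 and without any 1 of the 3 antibodies. Stx5a, the syntaxin of ER-to-Golgi fusion, had 142, 133 and 173 counts against 482 (−1.15 ± 0.18; adjusted p = 0.0021). Thus the partners in 1 fusion complex lay on both sides of the median, with Gosr2 enriched and Stx5a depleted.

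The remaining ER-Golgi members were not called. Sec22b stood at 0.38 ± 0.26, Gosr1 at −0.28, Ykt6 at 0.14 and Sec22c at −0.05; Ykt6 stood at −0.23 by total counts, and Sec22c turned positive without 35L33G or when the poly(A) column within the CLIP table served as input. Bnip1 and Stx18, partners of Use1, were not in the CLIP table.

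Of the 11 plasma membrane SNAREs only 3 were in the CLIP table, and none of these was enriched. Vamp3, the vesicle SNARE of recycling endosomes, had 230, 235 and 276 CLIP counts against 618 (−0.78 ± 0.12, SD, n = 3; edgeR adjusted p = 0.0067). Vamp2, a close relative known from synaptic vesicles, had 52, 102 and 22 counts against 190 and the widest spread of all members (−1.40 ± 1.11; adjusted p = 0.11), so that its low mean was not distinguishable from the input; without 2J3 it was called depleted. Stx3 stood at 0.20 ± 0.15 and was not called, and lay at −0.17 by total counts.

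Among the other tail-anchored proteins, both VAP paralogues were enriched. Vapa (NM_013933; mm9 chromosome 17, 65929393 to 65962895), an ER protein that tethers the ER to other membranes, had 2800, 2902 and 3111 CLIP counts against 1579 in poly(A) RNA. Its log2 enrichments were 1.39, 1.43 and 1.51 (mean 1.44 ± 0.06, SD, n = 3; edgeR adjusted p = 2.1e-10). Vapb, its paralogue with the same role, had 1210, 1062 and 1154 counts against 1030 (0.70 ± 0.10; adjusted p = 0.00025). Every antibody placed both above the input, Vapa by more than Vapb.

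The mitochondrial and apoptotic members showed smaller shifts. Mcl1, an anti-apoptotic Bcl-2 protein, had 3883, 3833 and 4760 CLIP counts against 5012 (0.27 ± 0.16, SD, n = 3; edgeR adjusted p = 0.019). The Mcl1 value was −0.10 by total counts, and its call was lost without the polyclonal library or with the CLIP table's poly(A) column as input. Bcl2l1, which encodes the related protein Bcl-xL, had 212, 212 and 255 counts against 444 (−0.43 ± 0.13; adjusted p = 0.16), not called. Cyb5b, the cytochrome b5 of the outer mitochondrial membrane, had 969, 966 and 917 counts against 1839 (−0.40 ± 0.06; adjusted p = 0.011) and was depleted.

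The insertion factors went separate ways. Wrb (NM_207301; mm9 chromosome 16, 96367026 to 96379459), whose product sits in the ER membrane, had 1254, 1470 and 1522 CLIP counts against 793. Its log2 enrichments were 1.23, 1.44 and 1.47 (mean 1.38 ± 0.13, SD, n = 3; edgeR adjusted p = 5.4e-08). Asna1 (NM_019652; mm9 chromosome 8, 87541830 to 87549177), which encodes the cytosolic ATPase, had 905, 783 and 1008 counts against 2340. Its log2 values were −0.80, −1.03 and −0.69 (mean −0.84 ± 0.17; edgeR adjusted p = 2.2e-05). Get4 (NM_026269; mm9 chromosome 5, 139728278 to 139746004), also cytosolic, had 525, 480 and 350 counts against 800 (−0.30 ± 0.33; adjusted p = 0.28), not called. The membrane subunit was enriched and the ATPase depleted with all 3 antibodies.

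The other cytosolic factors of the GET pathway were all depleted, 3 of 3 measured with a median of −1.76. Ubl4 stood at −1.88 ± 0.83, Bag6 at −1.76 ± 0.46 and Sgta at −1.74 ± 0.05 (SD, n = 3; edgeR adjusted p = 0.016, 8.4e-08 and 3.2e-08). The ER membrane protein complex (EMC), an insertase for membrane proteins, gave 4 enriched and 1 depleted among 6, and a median of 0.78; Tmem111 (1.92) and Mmgt1 (1.72) were highest, and Cox4nb (−0.85) and Tmem85 (−0.67, not called) lowest. The list called SNARE regulators here holds factors that prime or disassemble SNAREs, and also SNAREs such as Snap29 and Snap47. Of the 14 measured in it, 1 was enriched and 7 were depleted with a median of −0.39. Stxbp4 (1.27) and Snap29 (0.64, not called) were the highest of these, and Napa (−1.90), which recruits the disassembly ATPase, and Snap47 (−1.29) the lowest.

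Tail-anchored proteins outside the selection ranged as widely. Of 24 measured, 6 were enriched and 9 depleted, with a median of −0.26, from Emd (−2.69) and Hmox1 (−2.65) to Acbd5 (1.91) and Tomm7 (2.24). The RAB GTPases, cytosolic partners of SNAREs that are lipid-anchored, had 8 enriched and 5 depleted of 30 and a median of −0.17. Chaperones and disulfide enzymes of the ER, which enter it during translation, were enriched for 30 of 31 with a median of 1.87. This list, called ER chaperones below, holds membrane proteins such as Canx and Tmx1 besides proteins of the lumen. The members' share of 32.1% and median of 0.08 lay between those of the RAB proteins and those of the ER chaperones; no list was tested against another.

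**Figure D2:**
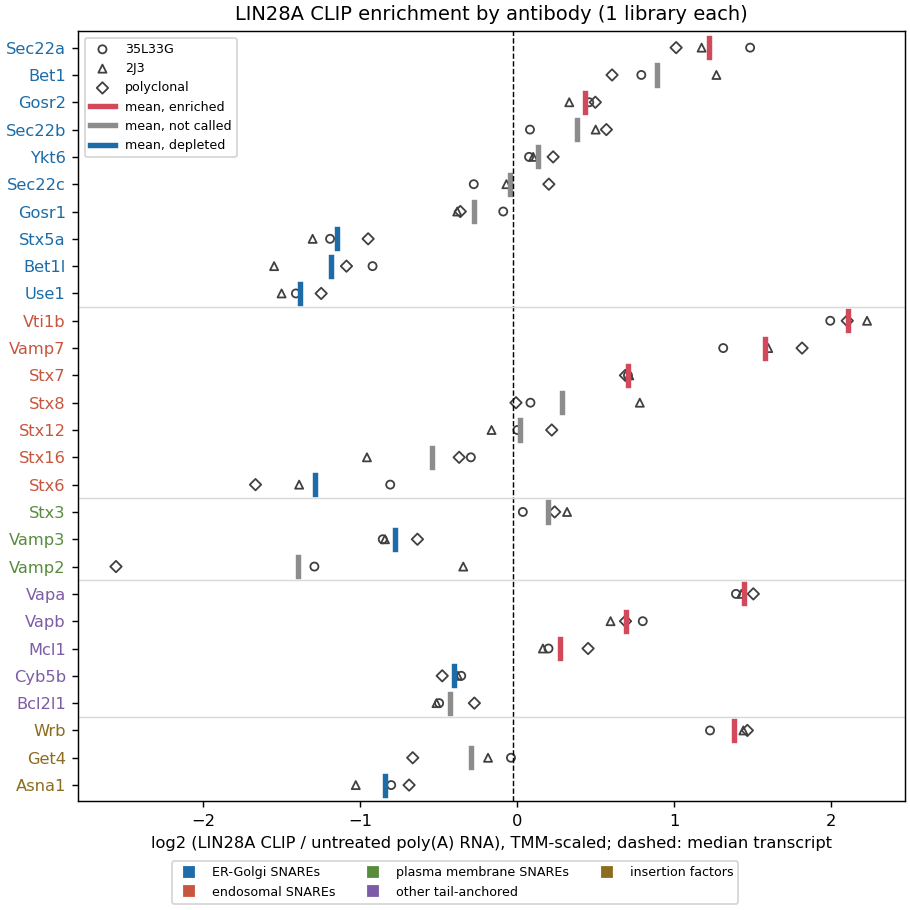
Log2 of LIN28A CLIP over untreated poly(A) RNA for 28 members, TMM-scaled; open symbols are the 3 antibodies (1 library each), thick bars their mean, coloured by call, and the dashed line is the median transcript at −0.03. Vti1b and Vamp7 lie farthest right, Use1 and Stx6 are the lowest of the depleted members, and Vamp2 has the widest spread.

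The position of the CLIP reads within the transcript was taken from coding and 3′ UTR counts. Coding counts made up a median of 44.3% of coding plus 3′ UTR counts in the 28 members and 69.9% over 7729 transcripts. The members also had less coding sequence: a median of 26.2% of transcript length, 5′ UTR included, against 56.6%. The coding share of counts was above the coding share of length in 25 of 28 members and 5543 of 7729 transcripts; the 3 exceptions were Mcl1, Ykt6 and Sec22c. These shares have different denominators, since the 5′ UTR counts in the length only.

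Single members stood apart from their lengths. In Stx8, 95.3% ± 2.2 (SD, n = 3) of the counts were coding although 17.3% of the annotated transcript is. Its siLuc poly(A) count was 239 in the poly(A) table and 226 in the footprint table, whose tally followed coding length across transcripts. The poly(A) reads of Stx8 may thus be mostly coding too, and no preference of LIN28A for its coding part is drawn. In Bcl2l1 78.8% ± 2.1 of the counts were coding, against 29.6% of its length. In Mcl1 the reverse held, with 11.6% ± 0.3 of the counts in the coding part and 28.6% of the length. Vapa had 86.9% ± 0.8 coding counts and Vapb 12.7% ± 2.5, for coding lengths of 45.6% and 10.5%, so these paralogues carried their LIN28A reads in different regions.

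The authors' deposited table gives a log2 ratio of CLIP over poly(A) counts per region, without a depth factor, so that it serves to compare regions of one transcript. For 12 members neither region was listed at 0 with any antibody; the coding ratio was above the 3′ UTR ratio in 6 and below it in 6, against 1172 above and 1817 below of 2989 transcripts. With all 3 antibodies, 4 members were higher in the coding part and 6 higher in the 3′ UTR. In Vapa the deposited coding ratio exceeded the 3′ UTR ratio by 1.23 ± 0.10 (SD, n = 3), in Stx12 by 0.95 ± 0.35 and in Stx3 by 0.89 ± 0.19. In Mcl1 the coding ratio minus the 3′ UTR ratio was −1.93 ± 0.04, in Vapb −1.87 ± 0.33, in Sec22b −1.25 ± 0.67 and in Ykt6 −0.99 ± 0.07. The Vapa and Vapb differences lay on opposite sides of 0 with every antibody. Gosr2 (−0.55) and Wrb (−0.31) were also lower in the coding part, and Cyb5b (0.52) was higher. The differences of Stx6 (0.21 ± 0.53) and Stx16 (0.08 ± 0.80) were smaller than their spread between antibodies.

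**Figure D3:**
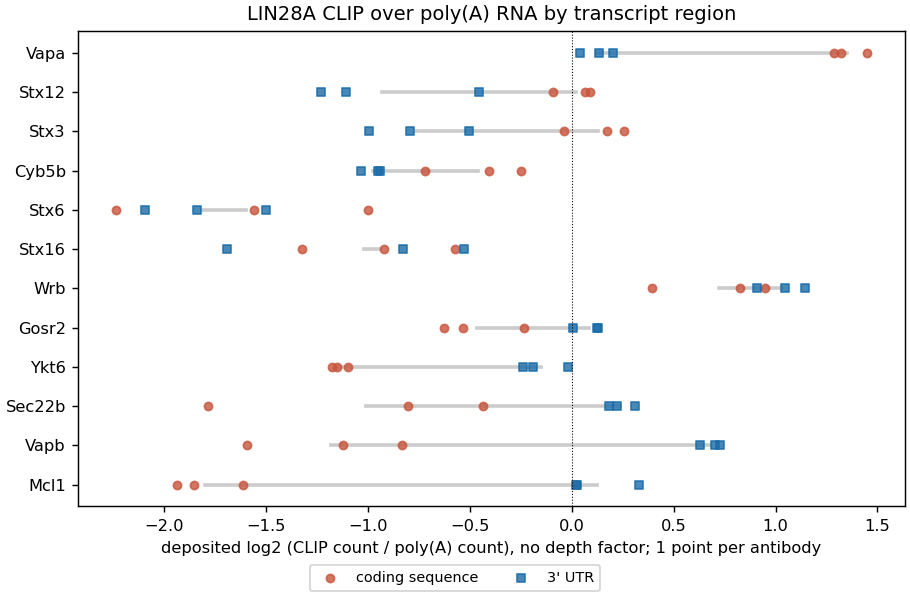
The authors' deposited log2 ratios of CLIP over poly(A) counts for the coding sequence (circles) and the 3′ UTR (squares) of 12 members, 1 point per antibody, ordered by the difference between regions; grey bars join the region means. Vapa lies at the top with the coding ratio higher by 1.23, and Vapb and Mcl1 at the bottom with −1.87 and −1.93.

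After Lin28a siRNA few members shifted by 1.5-fold at the mRNA level. There was 1 library per condition, so no p-value is given and 95% intervals cover counting error only. Of 38 members with at least 50 counts over the siLuc and siLin28a libraries, 1 was higher by 1.5-fold or more (2.63%) and 3 were lower (7.89%), against 11.4% and 6.53% of 11217 transcripts. The members' median log2 change was −0.18, and that of all transcripts 0.01. The change was below 0 in 26 members and above 0 in 12, and 18 members were below 0 against both siLuc and untreated cells. Both ratios share the siLin28a library, so their signs are not independent. Directions were not counted over all transcripts, so no trend of the members is drawn from these numbers.

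Vamp7 had the lowest ratio. It had 109, 91 and 48 poly(A) counts in the untreated, siLuc and siLin28a libraries (4.64, 4.80 and 1.97 RPKM), a log2 change of −1.28 against siLuc (95% counting interval −1.78 to −0.78) and −1.23 against untreated cells. Sec22c, a multi-spanning homologue of Sec22b, had 223, 167 and 134 counts (4.16, 3.86 and 2.41 RPKM) and a change of −0.68 (−1.01 to −0.35). Vamp3 had 618, 479 and 386 counts (31.5, 30.3 and 19.0 RPKM) and a change of −0.67 (−0.87 to −0.48). All 3 were also lower with siLin28a than in untreated cells. Neither Vamp7 nor Sec22c was in the footprint table.

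The highest mRNA ratios belonged to plasma membrane syntaxins. Stx1a, a syntaxin of exocytosis, had 67, 37 and 74 counts (3.49, 2.39 and 3.72 RPKM), a log2 change of 0.63 (0.06 to 1.19) against siLuc but 0.09 against untreated cells. Stx4a had 202, 200 and 357 counts (16.1, 19.7 and 27.4 RPKM), a change of 0.47 (0.22 to 0.72) against siLuc and 0.77 against untreated cells. Stx1a was thus lowest in the siLuc library, whereas the untreated and siLuc levels of Stx4a lay below its siLin28a level. Asna1 stood at 0.36 (0.27 to 0.44), and Wrb at −0.28 (−0.44 to −0.12).

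Outside the CLIP table, 8 further members with at least 50 counts stayed within 1.5-fold of siLuc. Vamp4, a SNARE of the trans-Golgi network, stood at 2.00, 4.81 and 3.58 RPKM in untreated, siLuc and siLin28a cells, a log2 change of −0.43 (−0.85 to 0.00) against siLuc but 0.83 against untreated cells. Vti1a, the paralogue of Vti1b, stood at 3.84, 4.24 and 5.01 RPKM (0.24 against siLuc), and Stx2 at 3.28, 4.30 and 4.80 RPKM (0.16). The direction for Vamp4 thus depended on the control library, which it did not for Vti1a and Stx2. Apart from Vamp4, all had counting intervals against siLuc that included 0: Vamp8 stood at 0.01, Stx18 at −0.14, Stx17 at −0.18, Bnip1 at −0.19 and Vamp1 at −0.22. Stx18 and Bnip1 also changed sign with the control library, at 0.16 each against untreated cells.

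Most of the pathway around the members also kept within 1.5-fold. Of the 3 other GET factors, Ubl4 was higher (0.77), with a list median of 0.35. The EMC had 1 lower of 7 (median −0.04), the SNARE regulators 2 lower of 17 (median −0.08), and the tail-anchored proteins outside the selection 2 higher of 30 (median 0.04); no others in these lists passed 1.5-fold. The ER chaperones had 2 lower of 33 (median 0.04), and the RAB proteins 2 higher and 5 lower of 42 (median −0.09).

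Footprints were measured for 26 members. With siLin28a 2 members had 1.5-fold more footprints and 2 fewer (7.69% each way), against 13% and 27.2% of 7799 transcripts. The members' median log2 change was −0.18 and that of all transcripts −0.23. Sec22a had 126 footprint counts with siLuc and 177 with siLin28a, a log2 change of 0.83 (0.50 to 1.16). Vti1b had 102 and 121, a change of 0.59 (0.21 to 0.96), at the 1.5-fold line. These gains stand against a smaller siLin28a library.

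The largest losses of footprints were those of a pair of trans-Golgi syntaxins. Stx6 had 202 footprint counts with siLuc and 88 with siLin28a, a log2 change of −0.85 (−1.21 to −0.49). Stx16 had 64 and 33, a change of −0.61 (−1.21 to 0.00). The interval of Stx16 reached almost to no change, and its call was lost with TMM scaling, with a pseudocount of 5 and with a minimum of 200 counts. Of the lists around the members, the SNARE regulators had 7 of 13 with 1.5-fold fewer footprints (median −0.71) and the ER chaperones 12 of 28 with more (median 0.56).

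Ribosome density was taken as footprints over the poly(A) counts of the same table, relative to the median transcript. With siLin28a it was 1.5-fold higher in 5 of 26 members (19.2%) and 1.5-fold lower in 0, against 18.6% and 17% of 7799 transcripts. The members' median log2 change was 0.16, with 0 for the median transcript by construction; the change was above 0 in 20 members. The counting interval lay above 0 in 8 members and below 0 in 2. These intervals were not counted over all transcripts or by total counts, so the numbers hold only relative to the median transcript. Scaled to library totals, the median transcript stood at −0.22 and the members' median at −0.05, and 3 members were then higher and 2 lower.

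The members past 1.5-fold came from 4 of the 5 roles. For Sec22a the poly(A) counts of the footprint table were 94 with siLuc and 105 with siLin28a beside its 126 and 177 footprints, a density change of 1.24 (95% counting interval 0.72 to 1.76). For Vti1b they were 214 and 227 beside 102 and 121 footprints, a change of 1.07 (0.61 to 1.54). Stx7 followed with 0.85 (0.43 to 1.27). These intervals lay wholly above 0.

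The ER receptor subunit Wrb and the syntaxin Stx3 completed the 5. Wrb had 311 and 270 footprints beside 202 and 190 poly(A) counts, a density change of 0.80 (0.43 to 1.17). Stx3 had 101 and 112 footprints beside 294 and 389, a change of 0.66 (0.21 to 1.10). By total counts Wrb and Stx3 fell under 1.5-fold, at 0.58 and 0.44, and kept their direction.

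The lowest density changes were those of Stx5a and Bcl2l1. Stx5a had 262 and 149 footprints beside 198 and 300 poly(A) counts, a change of −0.50 (−0.89 to −0.11). Bcl2l1 had 140 and 96 footprints beside 182 and 304, a change of −0.37 (−0.83 to 0.09). Stx6 stood at −0.32 (−0.76 to 0.12). Of these 3, only Stx5a had an interval wholly below 0.

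Among the insertion factors the cytosolic ATPase and the membrane receptor again differed in direction. Asna1 had 1760 and 1256 footprints beside 1795 and 2959 poly(A) counts, a density change of −0.30 (−0.43 to −0.16), where Wrb was at 0.80. Get4 had 520 and 397 beside 667 and 810, a change of 0.24 (0.003 to 0.48). Caml, the partner of Wrb in the receptor, had 165, 137 and 215 poly(A) counts in untreated, siLuc and siLin28a cells, an mRNA change of 0.29 (−0.02 to 0.60), and 287 and 258 footprints beside 132 and 162. Its density change was 0.46 (0.05 to 0.87), and it was not in the CLIP table. Relative to the median transcript, both receptor subunits and the cytosolic Get4 thus had an interval above 0, that of Get4 by little. The ATPase had one below 0. By total counts the median transcript stood at −0.22, a shift larger than the lower limits of Caml and Get4, so their intervals would then include 0.

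The other tail-anchored members moved little. Vapa had 1782 and 1103 footprints beside 1041 and 1155 poly(A) counts, a density change of 0.07 (−0.09 to 0.23), although its CLIP enrichment was the third highest. Mcl1 had 2081 and 1589 footprints beside 1915 and 2659, a change of 0.05 (−0.08 to 0.18). Vapb had 341 and 248 beside 230 and 235, a change of 0.42 (0.07 to 0.77), and Cyb5b 643 and 410 beside 431 and 473, a change of 0.13 (−0.13 to 0.39). Vapb alone of these 4 had an interval above 0.

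In the surrounding lists, 24 of 28 ER chaperones were 1.5-fold higher in ribosome density (median 0.75). The SNARE regulators had 1 higher and 5 lower of 13 (median −0.34), the other GET factors 0 of 3 either way (median −0.27) and the EMC 1 higher of 5 (median 0.15). The tail-anchored proteins outside the selection had 2 higher and 2 lower of 25 (median 0.11), and the RAB proteins 2 higher of 25 (median 0.20). The members' median of 0.16 lay near those of the RAB and EMC lists and below that of the ER chaperones, without a test.

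**Figure D4:**
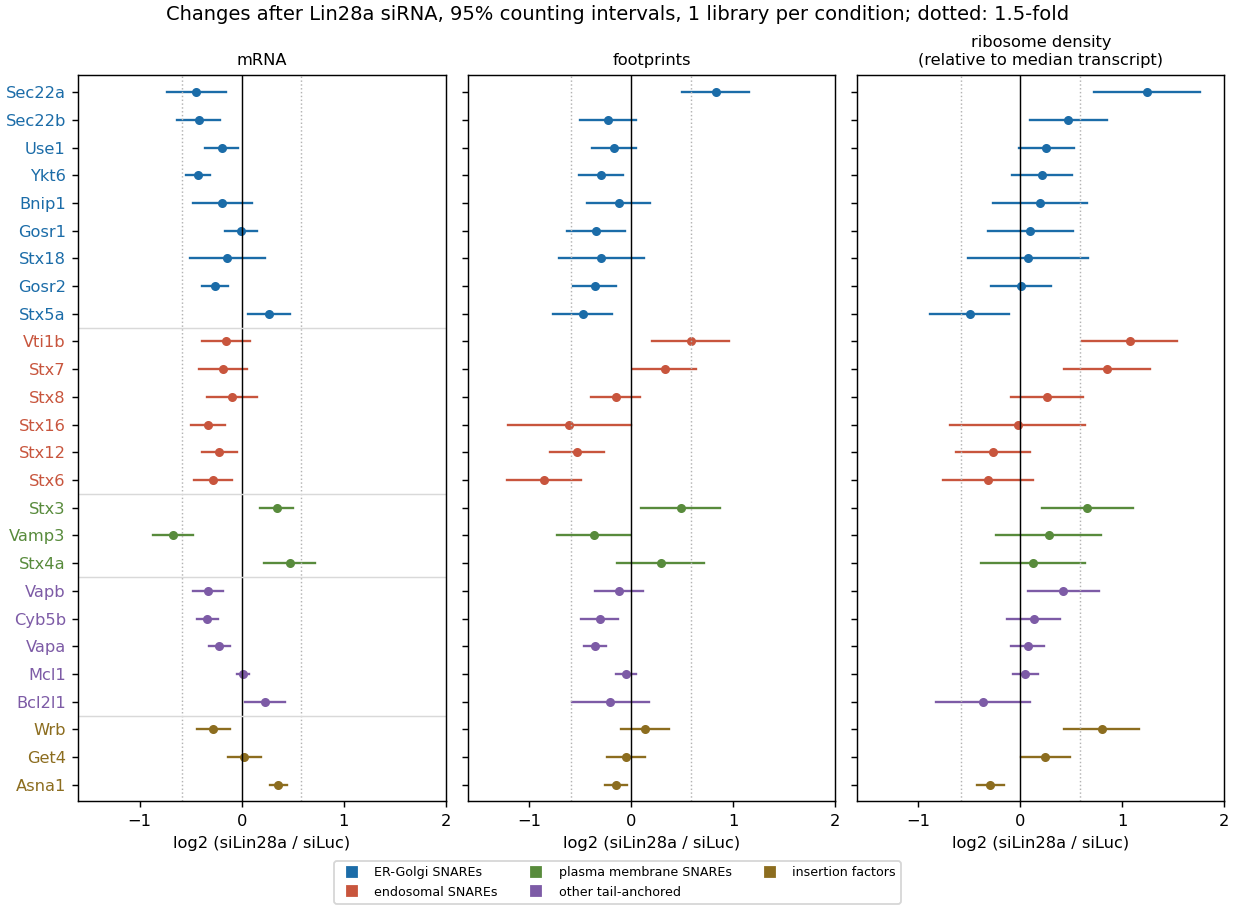
Log2 change from siLuc to siLin28a of mRNA, footprints and ribosome density for the 26 members of the footprint table, with 95% counting intervals (1 library per condition); colour gives the role, the solid line no change and dotted lines 1.5-fold. Sec22a, Vti1b, Stx7, Wrb and Stx3 pass the upper line for ribosome density and none passes the lower one.

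Members bound more by LIN28A tended to have the larger gain in ribosome density. Over the 23 members with both measures, Pearson's r was 0.71 and Spearman's rho 0.63, given as a description across genes, which come from the same libraries and are not independent replicates; over all 7108 transcripts the values were 0.49 and 0.48. All 8 enriched members had a density change above 0, with a median of 0.61. The changes of Gosr2 (0.004, −0.29 to 0.30), Mcl1 (0.05, −0.08 to 0.18) and Vapa (0.07, −0.09 to 0.23) had intervals that included 0. By total counts the median transcript stood at −0.22, a shift larger than these changes, so not all 8 would then lie above 0. Relative to the median transcript, the density change was above 0 in 6 of 9 members not called (median 0.21) and in 3 of 6 depleted members (median −0.08). Over all transcripts the change was above 0 in 1637 of 2282 enriched, 1188 of 2310 not called and 687 of 2516 depleted transcripts. The medians over all transcripts were 0.36 for enriched, 0.02 for those not called and −0.32 for depleted transcripts. Sec22a, Vti1b, Stx7 and Wrb were high in both measures. Stx5a, Stx6 and Asna1 were low in both, though the density interval of Stx6 included 0. Vapa was high in CLIP only, and Gosr2 and Mcl1 were likewise enriched with a density change near 0. Use1 (0.25), Vamp3 (0.28) and Cyb5b (0.13) were depleted in CLIP without a lower density.

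For CLIP enrichment and mRNA change, r was −0.22 and rho −0.19 over the 23 members that also had footprints. Over all transcripts with footprints they were −0.30 and −0.32. Members without footprints were left out of these values. They were Vamp7 (CLIP 1.58, mRNA −1.28), Vamp2 (−1.40 and 0.36), Bet1 (0.89 and −0.09), Bet1l (−1.18 and −0.16) and Sec22c (−0.05 and −0.68). The CLIP and mRNA values share no library, since the input was the untreated sample.

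**Figure D5:**
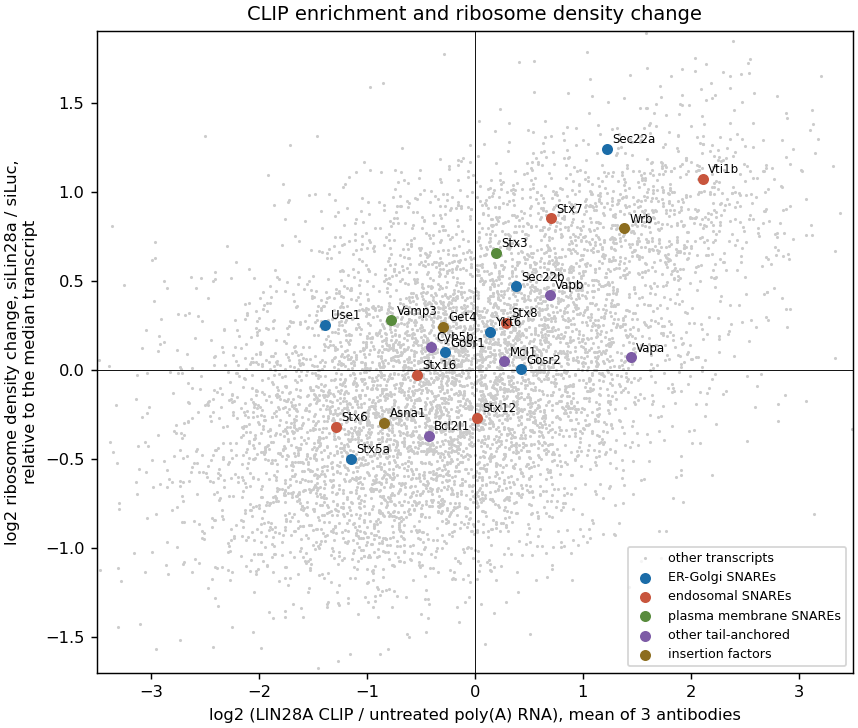
Ribosome density change after Lin28a siRNA (log2, relative to the median transcript) against LIN28A CLIP enrichment (log2, mean of 3 antibodies), for 23 members coloured by role and other transcripts in grey; 27 of 7085 other transcripts lie outside the axes. The 8 enriched members all lie above 0 on the vertical axis, with Gosr2, Mcl1 and Vapa close to it, as do 1637 of 2282 enriched transcripts of the whole set.

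Basal ribosome density, footprints over poly(A) counts with siLuc relative to the median transcript, depended on which poly(A) tally was used. With the poly(A) counts of the footprint table the members' median was 0.55 on the log2 scale, and with those of the poly(A) table it was −0.31. The footprint table held a median of 51.1% of the siLuc poly(A) counts for 23 members and 78.6% for 7181 transcripts, and this share followed the coding part of the transcript length with rho = 0.66 across transcripts. The coding part was a median of 28.6% for these members and 58.3% for all. No direction of the members' basal density is therefore given. Within the footprint table, Stx16 (−1.44) and Stx3 (−1.28) were the lowest members and Vapa (1.03) the highest.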

How the data were processed

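The members and gene lists were chosen with earlier results of these data known. Reads had been processed by the submitters, whose processing notes name GSNAP, bedtools and the build mm9; their versions, their roles and how reads were counted are not stated there. Per the file headers, the deposited values are counts of reads for each RefSeq transcript. The authors' deposited RPKM values equal counts scaled to exon length and to the column total, and the deposited log2 ratios compare CLIP with poly(A) counts per region. All 42 members were found by accession in the RefSeq gene table (GRCm38.p6), used for names only. Within the CLIP table the poly(A) counts carry no condition name and served only as an alternative input; 14 columns holding per-sample values stayed unused. The values of 1 member are not reported here.

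CLIP (3 libraries) was tested against untreated poly(A) RNA (1 library) with edgeR 4.0.16 in R 4.3.3 (quasi-likelihood test, TMM, filterByExpr, Benjamini-Hochberg adjustment over 7820 transcripts). Log2 values used a pseudocount of 0.5 counts. The siRNA changes are ratios of CPM; a change was called at 1.5-fold for transcripts with 50 counts or more. On simulated counts for 7820 transcripts the test recovered 43% of 1.5-fold and 64% of 2-fold changes, and 6.96% of its calls were unchanged transcripts. The simulation changed 100 transcripts per fold, equally up and down, and let the input vary like the CLIP libraries. In the real data 34.6% of transcripts were called enriched and 33.3% depleted, so 6.96% is not the rate of false calls there. DESeq2 1.42.0, other scalings, minimum counts, pseudocounts and inputs, and leaving out each antibody were tried. Given in full were the 3 highest and 3 lowest called CLIP members, the insertion factors, the other tail-anchored members, and the 2 highest and 2 lowest members of each siRNA ratio; other members of the CLIP table have at least their CLIP value, the rest their poly(A) values, and pathway lists their counts, median and extremes. Lists covered other GET factors, the EMC, SNARE regulators, other tail-anchored proteins, ER chaperones, RAB proteins and cell type markers.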

Additional observations from a re-analysis of the deposited data

How the results depend on the processing

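Scaling was the choice that moved the CLIP results most. By total counts 12 members were depleted and the median enrichment was −0.29, with Mcl1 at −0.095, Stx12 at −0.35, Stx3 at −0.17, Stx8 at −0.081 and Ykt6 at −0.23, below 0 in each case. Sec22c stood at 0.022 with the CLIP table's poly(A) column as input. Leaving out 1 antibody gave 9 enriched and 6 to 7 depleted members, a range of −0.17 to 0.063 for Sec22c and of −0.080 to 0.11 for Stx12. The same left 0.57 to 0.64 for the rank correlation of CLIP enrichment with density change, an alternative chosen after seeing the data; 200 counts in each assay gave 0.58. Counts past 1.5-fold are small and moved with the settings. Members with higher mRNA numbered 0 with a pseudocount of 5 or a minimum of 200 counts, 3 without a minimum and 2 against untreated cells. Members with fewer footprints numbered 1 under TMM, a pseudocount of 5 or 200 counts, and those with more numbered 1 with a pseudocount of 5. By total counts 3 members were higher and 2 lower in ribosome density, and the basal median was −0.31 with the mRNA of the poly(A) table. The causes were not tested. No paired analysis was possible because the siRNA conditions have 1 library each and the antibodies share no number with a second input. Single libraries limit every siRNA result to counting error.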
